A study of Mus musculus with 2 samples.

Results

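The antioxidant enzymes Cat, Sod1, Sod2, Sod3, Gpx1, Gpx3, Gpx4, Prdx1, Prdx3 and Txnrd1 were taken by gene symbol from an RNA-seq count table of C3H10 cells, in which they are 10 of 46095 genes. Of these, 9 were among the 17356 genes that were tested, those whose summed count over the NC and knockdown libraries reached 10, and Gpx3 was not. C3H10 is an established line of mouse embryonic mesenchymal cells that can be turned into adipocytes. The table holds 1 library of the group NC, from cells transfected with a negative control antisense oligonucleotide (ASO), and 1 library of the group MALAT1 knockdown, from cells transfected with an ASO against the long noncoding RNA MALAT1. In both groups the strain is given as C57BL/6, the cells received 100 nM ASO with a lipid reagent and were then differentiated with isobutyl-1-methylxanthine, dexamethasone, troglitazone and insulin, and total RNA was taken at day 6 and depleted of rRNA. The study used more than 1 ASO against MALAT1, and the sources used here do not say which one this library comes from. The comparison asks which transcripts differ when MALAT1 is depleted before adipogenesis.

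Antioxidant enzymes work in series. Superoxide dismutases turn superoxide, a by-product of respiration and of oxidases, into hydrogen peroxide, and catalase, glutathione peroxidases and peroxiredoxins turn hydrogen peroxide or lipid peroxides into water or alcohols. Glutathione and thioredoxin supply the electrons for the peroxidases, and thioredoxin reductase recharges thioredoxin with NADPH. The enzymes are spread over the cytosol (Sod1, Gpx1, Prdx1, Txnrd1), the mitochondrion (Sod2, Prdx3), the peroxisome (Cat), membranes (Gpx4) and the space outside the cell (Sod3, Gpx3). Adipocytes carry many mitochondria and peroxisomes, and catalase is abundant in differentiated fat cells.

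Several of these genes are textbook targets of the transcription factor NRF2, which binds the antioxidant response element. The core of that element, TGACNNNGC, was searched on both strands of the RefSeq promoter windows (GRCm38.p6, 250 bases before to 50 after a start site), which were found for 9 of the 10 enzymes and not for Sod3. Prdx1, Txnrd1 (in 1 of its 3 windows) and Sod1 held a match. Of all 32851 windows, 12.4% held one. That is a share of windows and not of genes, and Gpx4 and Txnrd1 have several windows each, so a count of enzymes cannot be set against it. The matches are shown because they set the enzyme that was higher in the knockdown library and the enzyme closest to no difference beside one that was lower. Each lies on the minus strand, so the plus strand is printed, with the element in capitals and 10 bases to either side.
Prdx1, chr4:116685456-116685484, element from base -133: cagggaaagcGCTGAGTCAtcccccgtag
Txnrd1, chr10:82859104-82859132, element from base -92: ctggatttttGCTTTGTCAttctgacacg
Sod1, chr16:90220696-90220724, element from base -56: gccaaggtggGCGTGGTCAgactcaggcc

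Positions count from the start site of the window. The Prdx1 match overlaps an AP-1 element (TGACTCA, both strands), which 5.20% of all windows and no other window of the enzymes held. A direct repeat of AGGTCA half-sites spaced by 1 base (AGGTCANAGGTCA, both strands, at most 1 mismatch), the kind of element that nuclear receptors such as PPARγ bind, was found in none of the windows of the enzymes and in 0.554% of all windows. A match is a run of letters, and binding was not measured here.

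The NC library held 58147539 counts and the MALAT1 knockdown library 61653549 counts, and 21111 and 21143 genes had at least 1 count. Levels are given in CPM, the counts of a gene per 1000000 counts of a library whose size was scaled by the trimmed mean of M-values (TMM), with factors of 0.992 and 1.01. Differences are log2 fold changes, MALAT1 knockdown over NC, with 95% intervals that cover counting error only, since 1 library per group leaves no replicate check and each test compares these libraries, not the conditions. At this depth 3 counts correspond to 0.052 CPM in the NC library and 0.0483 CPM in the knockdown library. Malat1 itself had 170402 counts in the NC library and 45396 in the knockdown library, 24.7% of the control level, with a log2 fold change of -2.01 (lower end of the 95% interval -2.03). Fibroblast transcripts such as Col1a1 and Vim and adipocyte transcripts such as Adipoq were abundant in both libraries. Other markers of these lists were sparse. Of the fibroblast and preadipocyte list, Dlk1 was at 0 in both, and Cd34 had 19 and 69 counts, Thy1 108 and 163 and Pi16 163 and 135. Of the adipocyte list, Lep had 1 and 0 counts, Slc2a4 26 and 17, Car3 59 and 25 and Cd36 144 and 99. Adgre1, Ptprc and Itgam of the macrophage and Myod1, Myog and Myf5 of muscle were at 0 in both. Of the other macrophage markers, Cd68 had 172 and 119 counts, Lyz2 7 and 25 and Csf1r 3 and 13, and of the other muscle markers, Des had 448 and 314 counts and Myh3 2 and 0. Of the endothelial markers, Pecam1 had 26 and 25 counts, Tek 23 and 19, Vwf 12 and 30, and Cdh5 and Kdr 0 and 1 each. Among bone and cartilage markers, Col2a1 had 378 and 692 counts, Ibsp 6 and 16, Bglap 3 and 0, Sp7 2 and 1, Col10a1 2 and 4, and Acan 0 in both.

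Among the tested enzymes, 8 were lower and 1 was higher in the MALAT1 knockdown library at an adjusted p under 0.05 by the exact binomial test. The same rule picked 23.8% of all tested genes as lower and 24.2% as higher, and 30.1% and 35.2% of the 8251 tested genes with a mean of at least 1000 counts, the range in which all 9 enzymes lie. No enzyme reached a 1.5-fold difference (1.5-fold rule, lower 7.27% and higher 4.37% of all tested genes, and 2.84% and 1.43% of those with a mean of at least 1000 counts). None reached the 2-fold rule either, which picked 4.09% of tested genes as lower and 2.18% as higher. The differences of the tested enzymes were therefore small, from -0.51 for Prdx3 to 0.25 for Txnrd1 on the log2 scale. Their median log2 fold change was -0.36 (quartiles -0.46 and -0.15), beside -0.0031 (quartiles -0.23 and 0.18) over all tested genes and 0.01 (quartiles -0.11 and 0.13) over those with a mean of at least 1000 counts. The 10 enzymes together took 150004 counts, 0.258% of the NC library, and 134880 counts, 0.219% of the knockdown library. In RNA from a whole culture, fewer cells of a type and less RNA per cell cannot be told apart.

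**Figure D1:**
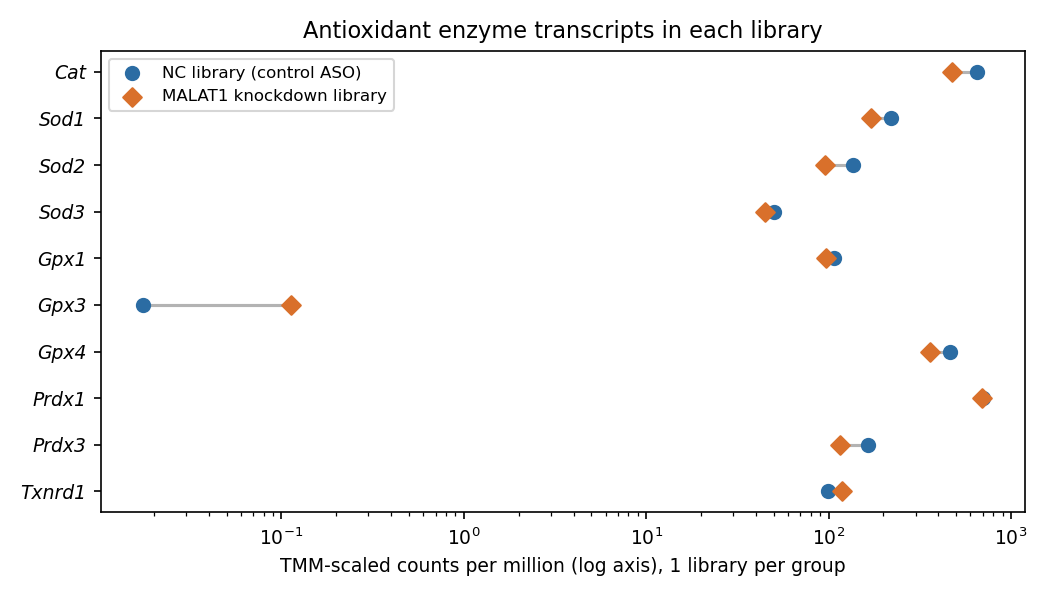
Level of each antioxidant enzyme in the NC library (circles) and the MALAT1 knockdown library (diamonds), in TMM-scaled CPM on a log axis, with 1 library per group and so no error bars. Gpx3 lies at 0.0173 and 0.113 CPM while the other enzymes lie between 44.9 and 706 CPM, and only Gpx3 and Txnrd1 have the diamond to the right of the circle.

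Catalase, which splits hydrogen peroxide in peroxisomes, was among the most abundant of the enzymes per length and was lower beyond counting error. Like that of every other tested enzyme, its call was lost under edgeR's exact test with an assumed biological coefficient of variation of 0.1 between cultures, where the smallest adjusted p of an enzyme was 0.133. Of all 17356 tested genes, 1079 passed an adjusted p under 0.05 in that test. Cat (chromosome 2, 103453849 to 103485160, minus strand, GRCm38, as are the coordinates of the other enzymes) had 37682 counts in the NC library and 29547 in the knockdown library, or 653 and 476 CPM. This is 72.8% of the control level, a log2 fold change of -0.46 (95% interval -0.48 to -0.44). Only 4.56% of the tested genes with a mean of at least 1000 counts had a larger decrease. Its share of the summed counts of the enzymes went from 25.1% to 21.9%.

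All 3 superoxide dismutases were lower, the mitochondrial one most and the extracellular one least. Sod1 is the copper and zinc enzyme of the cytosol (chromosome 16, 90220754 to 90226329, plus strand). It had 12630 and 10583 counts, or 219 CPM in the NC library and 170 CPM in the knockdown library, with a log2 fold change of -0.36 (95% interval -0.40 to -0.32). Sod2 is the manganese enzyme of the mitochondrial matrix (chromosome 17, 13006846 to 13040063, plus strand). It had 7878 and 5973 counts, or 137 and 96.1 CPM, which left 70.4% of the control level (log2 fold change -0.51, 95% interval -0.55 to -0.46). Sod3 is secreted and binds the extracellular matrix (chromosome 5, 52363791 to 52371418, plus strand). It had 2883 and 2791 counts, or 49.96 and 44.9 CPM, which left 89.9% of the control level (log2 fold change -0.15, 95% interval -0.23 to -0.08). Larger decreases than those of Sod1, Sod2 and Sod3 were seen in 6.96%, 3.83% and 19.2% of the tested genes with a mean of at least 1000 counts, so Sod3 lay well inside the bulk of genes and Sod2 near its lower edge.

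The glutathione peroxidases Gpx1, Gpx3 and Gpx4 are selenoproteins that use glutathione. Gpx4 was more reduced than Gpx1 in these libraries, and Gpx3 fell short of the count filter. Gpx4, which reduces lipid peroxides inside membranes (chromosome 10, 80047166 to 80056439, plus strand), had 26756 and 22327 counts, or 464 and 359 CPM. The knockdown library held 77.5% of the control level (log2 fold change -0.37, 95% interval -0.39 to -0.34), close to the difference of Sod1. Gpx1, the general cytosolic and mitochondrial form (chromosome 9, 108338903 to 108340343, plus strand), had 6189 and 6018 counts, or 107 and 96.9 CPM. At 90.3% of the control level (log2 fold change -0.15, 95% interval -0.20 to -0.10) it resembled Sod3 in size, and 20.02% of the tested genes with a mean of at least 1000 counts had a larger decrease.

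Gpx3, the secreted form found in plasma (chromosome 11, 54902453 to 54910377, plus strand), was at the limit of detection. It had 1 count in the NC library and 7 counts in the knockdown library, 0.0173 and 0.113 CPM. The ratio was 6.50 with a 95% interval of 0.835 to 293, which includes 1, so no difference was detectable at this depth. The genes on either side of it in the RefSeq order were well covered, Hint1 with 7350 and 6890 counts and Tnip1 with 8182 and 6484 counts. Their coverage cannot show that Gpx3 itself was counted in full, since the counting tool and annotation are not given.

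Peroxiredoxins reduce peroxides through a cysteine and are recharged by thioredoxin, and the cytosolic and the mitochondrial member parted. Prdx1, a cytosolic form (chromosome 4, 116685544 to 116700822, plus strand), had 40717 and 43102 counts, or 706 CPM in the NC library and 694 CPM in the knockdown library. At 98.3% of the control level (log2 fold change -0.02, 95% interval -0.04 to -0.00) it passed the exact binomial test with an adjusted p of 0.0319, and the call was lost under 3 other scalings of the libraries. Prdx3, the mitochondrial form (chromosome 19, 60864051 to 60874556, minus strand), had 9537 and 7191 counts, or 165 and 116 CPM. It fell to 70.0% of the control level (log2 fold change -0.51, 95% interval -0.56 to -0.47), the lowest of the 9 tested enzymes. Sod2, also of the mitochondrial matrix, lay next to it, while Gpx1, which is partly mitochondrial, lay at -0.15. Mitochondrial genes of the related lists lay in both directions, such as Txnrd2 (-0.86), Aldh1l2 (-0.74), Idh2 (-0.01) and Nnt (0.22), named after their values were seen.

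Txnrd1, the cytosolic selenoprotein that passes electrons from NADPH to thioredoxin (chromosome 10, 82833951 to 82897712, plus strand), was the only tested enzyme with a higher level in the knockdown library. It had 5731 and 7341 counts, or 99.3 and 118 CPM, 119% of the control level. Its log2 fold change was 0.25 (95% interval 0.20 to 0.30), and 9.90% of the tested genes with a mean of at least 1000 counts had a larger increase. Its share of the summed counts of the enzymes went from 3.82% to 5.44%.

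**Figure D2:**
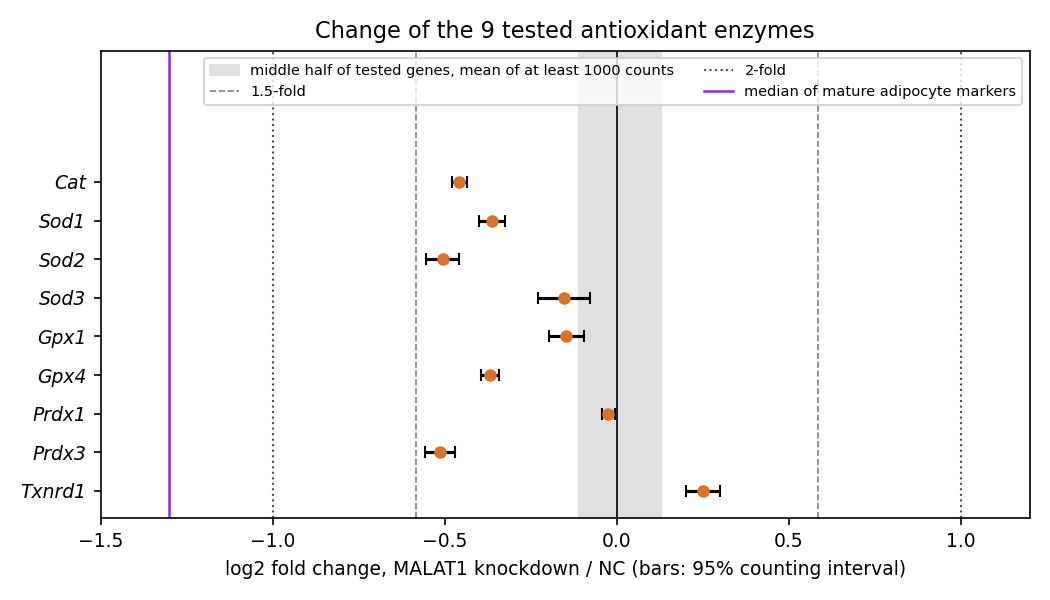
Log2 fold change, MALAT1 knockdown over NC, of the 9 tested enzymes, with bars for the 95% counting intervals. The grey band runs between the quartiles of tested genes with a mean of at least 1000 counts (-0.11 to 0.13), dashed and dotted lines mark 1.5-fold and 2-fold, and the purple line is the median of the mature adipocyte markers (-1.30); every enzyme lies inside the 1.5-fold lines and Prdx1 is the only one with its whole interval inside the band.

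The enzymes of a family were set against each other in the same libraries, where the scaling cancels. Of 7 pairs, 7 differed at an adjusted p under 0.05 by Fisher's exact test on the counts with Benjamini-Hochberg adjustment over the pairs, and these p-values again cover counting error only. Prdx3 lay 0.49 below Prdx1 on the log2 scale (95% interval of the difference -0.54 to -0.44, exact adjusted p = 1.17e-87). Sod2 lay 0.14 below Sod1 (difference -0.14, interval -0.21 to -0.08, exact adjusted p = 5.33e-06). Sod3 was less reduced than both, by 0.21 against Sod1 (interval 0.12 to 0.29) and by 0.35 against Sod2 (interval 0.26 to 0.44). Gpx4 was more reduced than Gpx1 (difference -0.22, interval -0.28 to -0.16, exact adjusted p = 1.03e-13). The pairs with Gpx3 rest on its 8 counts: Gpx3 minus Gpx1 was 2.85 (interval -0.18 to 5.87, exact adjusted p = 0.0366) and Gpx4 minus Gpx3 was -3.07 (interval -6.09 to -0.05, exact adjusted p = 0.0317), and both calls were lost when all counts were divided by 4.

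Levels between genes were compared per length, as CPM per kilobase of the longest annotated transcript (GENCODE M21). Gpx4 was highest in both libraries with 466 and 361 CPM per kilobase, followed by Prdx1 with 308 and 302, and Cat with 250 and 182. Prdx3 (112 and 78.3) and Gpx1 (100 and 90.4) came next and changed places between the libraries. Sod1 (55.1 and 42.9), Txnrd1 (27.4 and 32.6), Sod2 (23.3 and 16.4), Sod3 (13.4 and 12.02) and Gpx3 (0.0109 and 0.0707) followed in that order in both. The order depended on the transcript taken for the length. With the longest protein-coding transcript of Sod1, of 641 bases, in place of its longest of any kind, of 3970 bases, its level was 341 and 266 CPM per kilobase, rank 2 in the NC library and rank 3 in the knockdown library. With the mean length of each gene's transcripts, Prdx1 (752 and 739) came before Gpx4 (684 and 530). With the shortest transcript of at least 300 bases, Sod2 moved from rank 8 to rank 4 in the NC library (409 CPM per kilobase), Prdx3 from rank 4 to rank 8 and Gpx1 from rank 5 to rank 7. Without replicates there is no spread against which neighbours in this order could be told apart.

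Reads of some enzymes can be shared with near-identical copies. The longest Prdx1 transcript matched the processed pseudogene Gm21399 at 98.3% identity over 597 bases, and that gene had 1105 and 1065 counts of its own. Sod1 matched Gm8566 at 98.0% over 298 bases, with 142 and 118 counts there, so in both cases the counts of the copy were far below those of the enzyme. Gpx4 matched Gpx4-ps2 at 99.7% over 733 bases, for which no row was matched in the count table, so its counts are uncertain to that extent. No enzyme shared exon bases with an overlapping gene in the annotation.

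**Figure D3:**
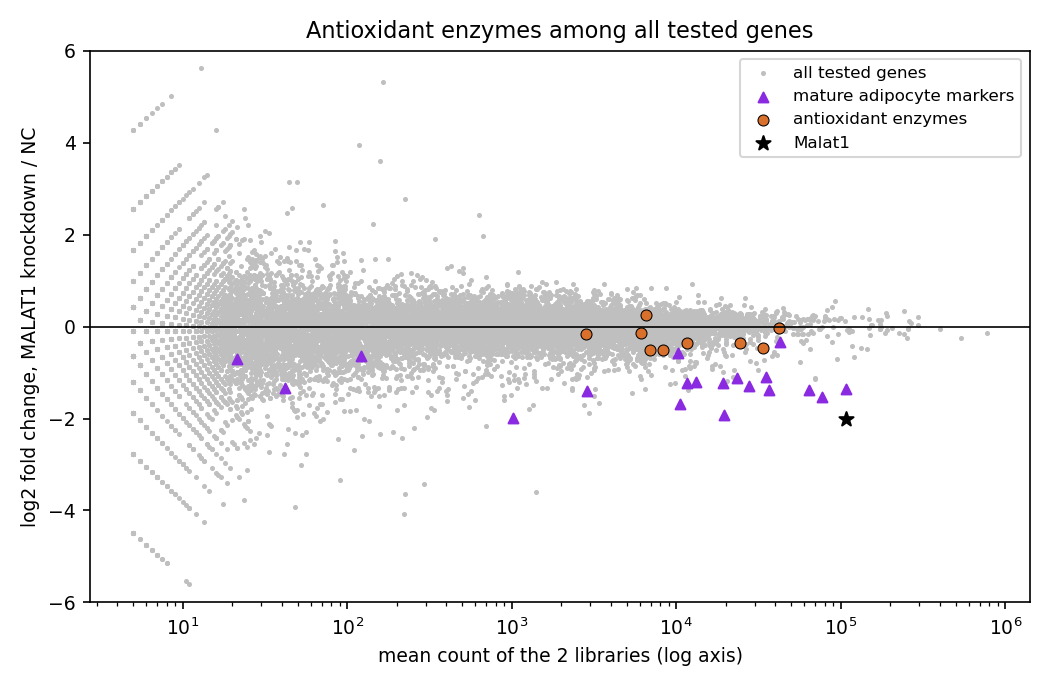
Log2 fold change, MALAT1 knockdown over NC, against the mean count of both libraries on a log axis, with 1 grey point per tested gene (17356). The tested enzymes (orange circles, -0.51 to 0.25) sit within the cloud of genes of like abundance, above most of the mature adipocyte markers (purple triangles, median -1.30) and Malat1 (star, -2.01).

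All 19 tested markers of the mature adipocyte lay below the control level, as did 8 of the 9 tested enzymes, and most markers lay further below. Plin4 (-0.33) moved less than Prdx3 (-0.51), and Pparg (-0.57) was close to it. Of 19 tested markers, 18 were lower at an adjusted p under 0.05, 15 were lower by the 2-fold rule, and the list ran from -1.99 to -0.33 on the log2 scale with a median of -1.30. Fabp4, the fatty acid carrier, had 151625 and 63240 counts (log2 fold change -1.37), Scd1, the stearoyl-CoA desaturase, 111931 and 41856 (-1.53), and Acsl1, the acyl-CoA synthetase, 90171 and 37346 (-1.38). Of 14 tested fibroblast and preadipocyte markers, 10 were higher and 2 lower at an adjusted p under 0.05, with a median of 0.18. That rule picked 24.2% of all tested genes as higher and 23.8% as lower, and 35.2% and 30.1% of those with a mean of at least 1000 counts. The 2 lower markers, Dcn (2247 and 1315 counts, -0.88) and Lum (1246 and 674 counts, -0.99), passed the 1.5-fold rule. Of the higher markers only Cd34 did, with 19 and 69 counts. These 3 were named after their values were seen. Of the tested enzymes, 8 were thus lower and Txnrd1 higher in a library in which adipocyte markers were lower and 10 of the 14 fibroblast markers higher. The part of this shift in the differences of the enzymes was not tested.

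The other genes of the system were read from 10 lists of related genes, 110 of which were tested out of 125 found in the table. At an adjusted p under 0.05, 55 were lower and 23 higher, 15 were lower and 0 higher by the 1.5-fold rule, and 4 were lower and 0 higher by the 2-fold rule. Their median log2 fold change was -0.11. These counts and those of the lists below stand beside the shares over all tested genes. At an adjusted p under 0.05 the shares were 23.8% lower and 24.2% higher. The shares were 7.27% and 4.37% by the 1.5-fold rule, and 4.09% and 2.18% by the 2-fold rule. Among tested genes with a mean of at least 1000 counts, 30.1% were lower and 35.2% higher at an adjusted p under 0.05. By the 1.5-fold rule 2.84% and 1.43% of those were. No list was tested as a group.

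Among 12 tested genes of the remaining peroxidases and of the thioredoxin system, 9 were lower and 2 higher at an adjusted p under 0.05, with a median of -0.18. Txnip, which binds and restrains thioredoxin, had 32070 and 26651 counts (log2 fold change -0.37). Prdx5, a peroxiredoxin of mitochondria and peroxisomes, had 15817 and 15096 counts (-0.17), while cytosolic Prdx2 had 10859 and 12414 (0.09). Txn1, cytosolic thioredoxin and the substrate of Txnrd1, had 11860 and 12399 counts (-0.04). The mitochondrial thioredoxin reductase Txnrd2 (125 and 74 counts, -0.86) and Txnrd3 (749 and 525 counts, -0.62), named after their values were seen, passed the 1.5-fold rule as lower, opposite in direction to Txnrd1. Gpx2, Gpx5, Gpx6 and Gpx7 were listed at 0 in both libraries. Gpx7, like Gstk1 and Cyba in the lists that follow, is expressed in many cell types, and with the counting tool and annotation not given, whether a 0 there is a gap in the counting was not tested, and it is not read as a level.

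Glutathione is made by glutamate-cysteine ligase and glutathione synthetase, and glutaredoxins use it to reduce disulfides. Of 13 genes for glutathione synthesis and reduction, 5 were lower and 1 higher at an adjusted p under 0.05. The one that was higher was Gclc, the catalytic subunit of the ligase, with 10575 and 16517 counts and a log2 fold change of 0.54 (95% interval 0.50 to 0.57). Glrx3, a cytosolic glutaredoxin that carries iron-sulfur clusters, had 7804 and 6077 counts (-0.47), the mitochondrial Glrx5 had 2413 and 2262 (-0.20), and Glrx had 8388 and 9187 (0.02), a difference that did not pass the test. Of 19 tested glutathione S-transferases, which join glutathione to electrophiles, 7 were lower and 1 higher, and 5 passed the 1.5-fold rule as lower. Gsta3 had 802 and 328 counts (log2 fold change -1.40) and passed the 2-fold rule, and Gstz1, of tyrosine breakdown, had 8547 and 5204 (-0.82). Mgst3, a microsomal form, had 8461 and 7115 counts (-0.36), Gstm2 had 7409 and 8807 (0.14), and Gstm1 had 9737 and 10237 (-0.03), which did not pass the test. Gstk1 was listed at 0 in both libraries.

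The lists of NRF2 control and of further NRF2 targets showed no common direction, and targets placed in other lists are not counted here. Among 8 genes that control it, 3 were lower and 3 higher at an adjusted p under 0.05, with a median of 0.04. Nfe2l2, which encodes NRF2, had 11628 and 14199 counts (log2 fold change 0.18), and Nfe2l1, its relative, had 26756 and 24401 (-0.24). Cul3, the scaffold of the ligase that marks NRF2 for breakdown, had 6274 and 7665 counts (0.18), and Mafg, a DNA-binding partner of NRF2, had 7427 and 7482 (-0.10). Of 10 further NRF2 targets, 5 were lower and 4 higher, all inside the 1.5-fold lines. The ferritin chains Fth1 (252586 and 262600 counts, -0.05) and Ftl1 (110994 and 112473 counts, -0.09) and the heme oxygenase Hmox1 (9495 and 9011 counts, -0.18) were slightly lower, and the epoxide hydrolase Ephx1 (22126 and 26223 counts, 0.14) was slightly higher. The others that passed, named after their values were seen, were Nqo1 (0.20), Osgin1 (0.20) and Abcc1 (0.05), higher, and Blvrb (-0.14) and Cbr1 (-0.23), lower. Prdx1, Txnrd1 and Sod1, the enzymes with an antioxidant response element core printed above, lay at -0.02, 0.25 and -0.36. Their matches were shown for these directions and binding was not measured, so nothing about NRF2 is read from them. NRF2 activity was not tested.

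NADPH feeds both the glutathione and the thioredoxin branch. Of 12 genes of its supply, 9 were lower and 2 higher at an adjusted p under 0.05, with a median of -0.24. Idh1, the cytosolic isocitrate dehydrogenase, had 33208 and 29272 counts (log2 fold change -0.29), while the mitochondrial Idh2 had 21383 and 22902 (-0.01), which did not pass the test. In the pentose phosphate pathway, G6pdx had 16075 and 15569 counts (-0.15) and Tkt had 16563 and 13547 (-0.40). Aldh1l1, a folate enzyme that yields NADPH, had 1798 and 942 counts (-1.04) and passed the 2-fold rule.

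Gpx1, Gpx4 and Txnrd1 carry selenocysteine, whose insertion needs its own factors. Of 6 genes of selenoprotein synthesis, 3 were lower and 0 higher at an adjusted p under 0.05, with a median of -0.11. Secisbp2, which binds the selenocysteine insertion element, had 1738 and 1727 counts (log2 fold change -0.12) and Trnau1ap had 1443 and 1399 (-0.15). Sephs2, which makes selenophosphate, had 1560 and 1568 counts (-0.10), and the elongation factor Eefsec had 1216 and 1240 (-0.08), and neither passed the test. Of 13 tested further selenoproteins, 4 were lower and 7 higher, with a median of 0.09. Selenop, the secreted selenium carrier listed as Sepp1, had 58895 and 75857 counts (0.26). Selenof (Sep15), Selenon (Sepn1) and Selenot (Selt), proteins of the endoplasmic reticulum, lay at 0.19, 0.26 and 0.16.

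Of 10 tested sources of reactive oxygen, 5 were lower and 2 higher at an adjusted p under 0.05. Ero1a (listed as Ero1l), the oxidase that forms disulfides in the endoplasmic reticulum and releases hydrogen peroxide, had 16652 and 6935 counts (log2 fold change -1.37) and passed the 2-fold rule. Cyba, a subunit of NADPH oxidases, was listed at 0 in both libraries. Xdh, xanthine dehydrogenase, had 25877 and 25920 counts (-0.10), and Maoa, a mitochondrial monoamine oxidase, had 9892 and 13318 (0.32). Among 7 tested genes of copper delivery and metallothioneins, which bear on the copper that Sod1 and Sod3 need, 5 were lower and 1 higher. The copper importer Slc31a1 had 5681 and 5079 counts (-0.27), the metallothioneins Mt2 (29797 and 26598 counts, -0.27) and Mt1 (23234 and 22058 counts, -0.18) were lower, and the copper pump Atp7a had 6685 and 8626 counts (0.26). Its relative Atp7b, with 28 and 4 counts, passed the 2-fold rule (-2.77, 95% interval -4.89 to -1.40).

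**Figure D4:**
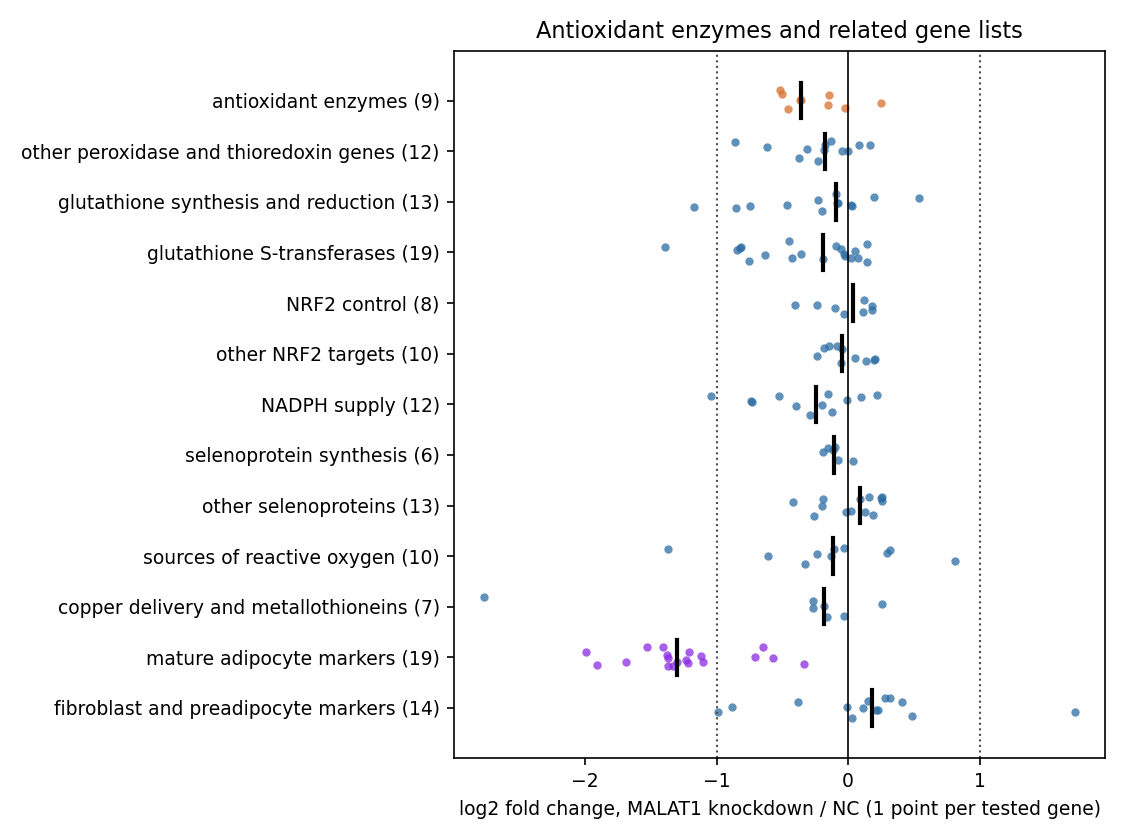
Log2 fold change, MALAT1 knockdown over NC, with 1 point per tested gene and a black bar for the median of each list; the number of tested genes stands in brackets and dotted lines mark 2-fold. The median of the antioxidant enzymes (-0.36) lies below those of the 10 related lists (-0.24 to 0.09) and above that of the mature adipocyte markers (-1.30).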

How the data were processed

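RNA of 2 C3H10 cultures, NC and MALAT1 knockdown, was sequenced as rRNA-depleted directional libraries. The submitters' processing notes name HISAT2 and the build GRCm38. The counting tool, its annotation and its handling of strand and of reads with several matches are not given in the sources used here. The authors deposited raw counts per gene symbol, without normalization. Columns were taken by the title of each sample. Genes with at least 10 summed counts were tested by a two-sided exact binomial test of the counts against TMM-scaled library sizes (edgeR 4.0.16, R 4.3.3, Python 3.11.15, scipy 1.17.1), and p-values were adjusted over 17356 genes by the Benjamini-Hochberg method. The test was checked on data simulated with counting error only and with differences larger than those of the enzymes. That check does not cover variation between cultures. The 3 rules were an adjusted p under 0.05 alone (added after the data were seen), with 1.5-fold, and with 2-fold. Log2 fold changes used a prior count of 0.5, and intervals are Clopper-Pearson. Copies were sought with BLAST 2.17.0 (at least 95% identity over 200 bases). From each related list the called genes and the 4 with the highest mean count are named, and 3 adipocyte markers; 1 gene under this rule is not reported here. The enzymes and lists were chosen with earlier results of these data known. Alternatives were other scalings (library totals, DESeq2 1.42.0 size factors, upper quartile), filters, a prior count of 2, counts divided by 4, and edgeR's exact test with an assumed biological coefficient of variation.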

Additional observations from a re-analysis of the deposited data

How the results depend on the processing

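With 1 library per group no replicate could be left out and no paired analysis was possible because each group has 1 sample. No log2 fold change of the tested enzymes changed sign under the other scalings or the prior count of 2. The filters, the divided counts and edgeR's exact test leave the log2 fold change of these enzymes as it is, so they could not change a sign. Of the 90 values over all alternatives, 58 stayed on their side of the threshold and 32 no longer passed it. The median of the enzymes lay between -0.36 and -0.26, the latter with no filter, where Gpx3 entered. Prdx1 lost its call with library totals, DESeq2 size factors and upper-quartile factors, which moved the median of all genes to at most 0.02, and with counts divided by 4, where Sod3 lost its call too. With counts divided by 4, Gpx3 minus Gpx1 was 2.36 and Gpx4 minus Gpx3 was -2.58, both no longer called. In that setting 35 related genes were lower and 14 higher at an adjusted p under 0.05. The share over all genes in that setting is not given here. Under edgeR's exact test with an assumed biological coefficient of variation of 0.1, 0.2 or 0.4, 0 enzymes were lower and 0 higher at an adjusted p under 0.05; at an unadjusted p under 0.05 there were 3 (Cat, Sod2 and Prdx3) at 0.1 and 0 at 0.2 and 0.4. The smallest adjusted p of an enzyme at 0.1 was 0.133 by that test. Of the related genes, 11 were lower at 0.1 and 0 at 0.2 and 0.4, and 0 were higher at any of them. By the 2-fold and by the 1.5-fold rule 0 were lower at 0.2 and 0.4. Over all 17356 tested genes, in either direction, 1079 passed an adjusted p under 0.05 by that test at 0.1, 117 at 0.2 and 1 at 0.4. So few genes passed at 0.2 and 0.4 that a 0 in a small list says little about the list. The spread between cultures is unknown, so which of these values applies was not tested.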
